A study of Homo sapiens with 6 samples.

Results

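AKAP12 and 9 related genes of protein kinase A (PKA) anchoring are described here after knockdown of gankyrin in SW480, a long-established line of human colon carcinoma cells. The 10 genes are the A-kinase anchoring proteins (AKAPs) AKAP1, AKAP7, AKAP8, AKAP9, AKAP10, AKAP11, AKAP12 and AKAP13 and the PKA regulatory subunits PRKAR1A and PRKAR2B. They were taken with every probe set that the array's annotation pairs with that gene alone, which gave 39 of 41091 such probe sets and 10 of 19775 genes. The genes were chosen with their values in this comparison known, so the differences of all 10 genes between the groups are given as a description, with no p-value. Where any of them is said to pass or miss the threshold of limma, the test used below, that is description too. The cells carried either a short hairpin RNA (shRNA) against gankyrin (n = 3 arrays) or a non-targeting shRNA (n = 3 arrays), both for 4 days, and no other treatment is recorded. The shRNAs were delivered by infection, and the labels give neither their sequences nor their number, nor whether the replicates were separate cultures. The variation against which p-values below are set is that from array to array, and it may be technical.

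PKA is held inactive by its regulatory subunits until cyclic AMP (cAMP) binds them and frees the catalytic subunits. AKAPs bind the regulatory subunits through an amphipathic helix and place the kinase at a membrane, an organelle or the cytoskeleton, often together with phosphatases, phosphodiesterases and other kinases. AKAP12, also called gravin or SSeCKS, is such a scaffold at the plasma membrane and cortical cytoskeleton, and it is known as a gene silenced in several cancers, colorectal cancer among them.

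AKAP12 has several annotated start sites, and their sequences are shown because no value used here tells transcripts of one start from those of another. The RefSeq promoter table (GRCh38.p14) gave 21 windows for the 10 genes, each from 250 bases before to 50 bases after a start site, and 3 of them belong to AKAP12 on the plus strand of chromosome 6. They lie at chr6:151239717-151240016 (upstream start), chr6:151325281-151325580 (middle start) and chr6:151341456-151341755 (downstream start). Capitals mark CACGTG, the palindromic E-box, which is read the same on both strands.
AKAP12 upstream start: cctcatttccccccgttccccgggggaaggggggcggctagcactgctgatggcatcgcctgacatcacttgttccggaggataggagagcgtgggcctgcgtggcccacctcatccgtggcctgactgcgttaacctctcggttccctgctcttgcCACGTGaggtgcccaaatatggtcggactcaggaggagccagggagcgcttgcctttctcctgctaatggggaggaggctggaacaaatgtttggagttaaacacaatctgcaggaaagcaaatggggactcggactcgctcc
AKAP12 middle start: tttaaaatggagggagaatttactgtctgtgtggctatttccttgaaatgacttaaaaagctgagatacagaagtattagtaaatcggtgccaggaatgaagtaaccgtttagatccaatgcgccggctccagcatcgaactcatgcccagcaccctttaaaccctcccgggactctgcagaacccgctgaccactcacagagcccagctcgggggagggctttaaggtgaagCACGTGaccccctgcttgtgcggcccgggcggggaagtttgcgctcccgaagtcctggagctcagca
AKAP12 downstream start: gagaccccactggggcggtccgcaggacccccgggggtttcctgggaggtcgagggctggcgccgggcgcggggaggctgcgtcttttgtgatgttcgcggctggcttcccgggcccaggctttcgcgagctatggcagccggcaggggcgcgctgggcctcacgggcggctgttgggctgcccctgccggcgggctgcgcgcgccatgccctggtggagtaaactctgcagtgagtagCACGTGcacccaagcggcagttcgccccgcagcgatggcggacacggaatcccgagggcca
Each AKAP12 window held 1 E-box, whose first base lay at -93, -17 and -11 relative to the upstream, middle and downstream start. The E-box was looked for after the AKAP12 sequences had been read. It occurred in 7.26% of all 35116 windows and, among genes with 3 windows, in every window of 6 of 1019 genes. Over the 10 genes it was found in 7 of 21 windows, the other 4 being 1 each of AKAP1, AKAP10, PRKAR1A and PRKAR2B. The cAMP response element TGACGTCA, searched on both strands and also its own reverse complement, was in 1.85% of all windows and in none of AKAP12. It was in 2 overlapping PRKAR1A windows. The motif TGANTCA, searched on both strands, takes any middle base and is looser than the AP-1 consensus TGA(C/G)TCA. It was in 7.71% of all windows and in 1 of PRKAR1A only among these genes. That PRKAR1A match read TGAATCA, which is outside the consensus. A match describes the letters only and is neither a bound site nor a cause.

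AKAP7, which anchors PKA at the plasma membrane through lipid-modified short forms, has a promoter window at chr6:131135217-131135516 and another at chr6:131250154-131250453, both on the plus strand. They are shown as the windows of the anchoring protein that was higher after knockdown, and neither holds an E-box, a cAMP response element or an AP-1 motif.
AKAP7 upstream start: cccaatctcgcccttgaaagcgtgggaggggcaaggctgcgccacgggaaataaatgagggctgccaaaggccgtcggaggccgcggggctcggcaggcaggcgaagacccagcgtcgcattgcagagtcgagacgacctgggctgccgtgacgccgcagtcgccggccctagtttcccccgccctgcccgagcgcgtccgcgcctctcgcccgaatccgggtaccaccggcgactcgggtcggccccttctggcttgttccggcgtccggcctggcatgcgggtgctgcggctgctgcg
AKAP7 downstream start: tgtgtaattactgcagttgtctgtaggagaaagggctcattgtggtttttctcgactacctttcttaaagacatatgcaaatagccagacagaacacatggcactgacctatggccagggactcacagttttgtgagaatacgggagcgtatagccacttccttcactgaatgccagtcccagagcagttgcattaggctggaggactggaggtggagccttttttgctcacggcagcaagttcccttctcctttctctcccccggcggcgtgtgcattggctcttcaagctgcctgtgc
The first AKAP7 window had 38 CpG dinucleotides and the second 7. The AKAP12 windows had 15, 14 and 32 in genome order, against a median of 14 over all windows.

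The targeted gene was checked first. PSMD10, which encodes gankyrin, had log2 signals of 6.58, 6.47 and 6.30 in gankyrin shRNA arrays against 10.19, 10.23 and 10.15 in control shRNA arrays on its brighter probe set (limma, adjusted p = 6.81e-09, over 14199 genes; exact two-sided permutation p = 0.1, the smallest that 3 against 3 arrays allow). The design text also mentions an shRNA against NFIL3 in 1 place, whereas every sample label names gankyrin or the control. NFIL3 was at 9.07 ± 0.05 in gankyrin shRNA arrays and 9.33 ± 0.13 in control shRNA arrays (SD, n = 3 each). It was thus lower by a small step, at -0.26 ± 0.07 (log2 ± SE; limma, adjusted p = 0.0281), with no overlap. The call held in 10 of 15 alternatives. All 12 markers of colon epithelium lay past the filter on dim probe sets (3.6 on the log2 scale), from 3.75 for GPA33 to 13.02 for KRT18, and their summed signal was 107.7 to 108.7 in gankyrin shRNA and 109.7 to 110.1 in control shRNA arrays. CDX2 was at 4.16, near the filter limit. Of 8 leukocyte markers on the array 5 were past the filter, from PTPRC at 2.65 to LYZ at 12.29, with summed signals of 39.46 to 40.28 in gankyrin shRNA and 38.77 to 39.94 in control shRNA arrays. Of 8 endothelial markers 3 were past it, from KDR at 2.12 to ESAM at 8.25, with sums of 31.12 to 32.53 in gankyrin shRNA and 31.38 to 32.19 in control shRNA arrays; ESAM was the one that fell, at 7.91 in gankyrin shRNA and 8.58 in control shRNA arrays. Of 10 fibroblast markers 5 were past it, from LUM at 2.39 to COL1A1 at 7.12, with sums of 39.78 to 39.99 in gankyrin shRNA and 38.07 to 38.47 in control shRNA arrays. By limma at an adjusted p under 0.05, 4 epithelial markers fell and 1 rose, 1 fibroblast marker rose, and 0 leukocyte markers passed. Differences without overlap included CDH1 (-0.64), KRT20 (-0.66) and VIL1 (0.82) of epithelium and FAP (0.84) of fibroblasts. The part of these markers in the results below was not tested. Control replicate 3 stood apart: 4.96% of genes lay more than 0.5 from the mean of the other controls there, against at most 0.84% on any other array from its own group. It lay farther from the other controls than these from each other on 18 of the 30 probe sets of the 10 genes past the filter, or 60%, close to the 57% of all probe sets.

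AKAP12 was far lower after gankyrin knockdown, on 4 probe sets alike. On its brightest probe set, 210517_s_at, the log2 signal was 9.10, 9.51 and 9.06 in gankyrin shRNA arrays against 11.70, 11.86 and 11.62 in control shRNA arrays. The groups lay more than 2 log2 units apart, and within each group replicate 2 was the highest. The difference was -2.50 ± 0.11 (log2 ± SE), or 5.67-fold lower, the sixth lowest of 14199 genes.
Probe set 227530_at read 7.30, 7.67 and 7.20 in gankyrin shRNA and 10.32, 10.51 and 10.49 in control shRNA arrays, 8.28-fold lower. Probe set 227529_s_at read 5.22, 5.85 and 5.55 in gankyrin shRNA and 8.58, 8.71 and 8.59 in control shRNA arrays, 8.50-fold lower. Probe set 231067_s_at read 4.92, 5.22 and 4.62 in gankyrin shRNA and 7.82, 8.19 and 7.56 in control shRNA arrays, 7.66-fold lower. On all 4 the groups did not overlap, and replicate 2 was the highest array of each group, so the arrays kept that order across probe sets that share the same labelled RNA. The brightest probe set had the smallest of the 4 differences; they ran from -3.09 to -2.50. The fifth probe set, 1555395_at, was under the filter at 2.88 ± 0.11 in gankyrin shRNA and 2.92 ± 0.10 in control shRNA arrays (SD, n = 3 each), with the groups overlapping. Fewer cells with AKAP12 RNA and less AKAP12 RNA per cell cannot be told apart in such bulk RNA.

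**Figure D1:**
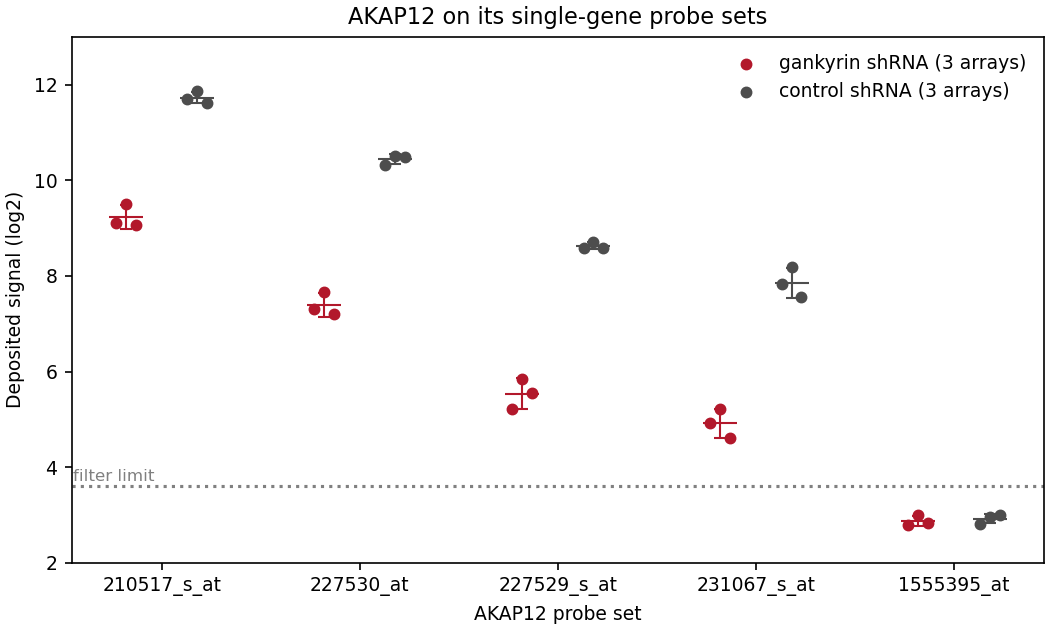
Deposited log2 signal (vertical axis) of the 5 single-gene probe sets of AKAP12 (horizontal axis), with gankyrin shRNA arrays in red left of control shRNA arrays in grey, replicates 1 to 3 from left to right, and bars for the mean ± SD (n = 3 each). On the 4 probe sets above the dotted filter limit of 3.6 every gankyrin shRNA array lies below every control shRNA array, whereas the groups overlap on 1555395_at.

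The genes whose array values ran closest to those of AKAP12, by root mean square distance over the 6 arrays after subtracting the control mean, were DHRS2 (0.135), GULP1 (0.174), MMP10 (0.216), ANKRD29 (0.252), PLTP (0.288) and ACOT4 (0.291). DHRS2, a short-chain dehydrogenase, read 7.26, 7.73 and 7.19 in gankyrin shRNA arrays and 9.71, 9.82 and 9.98 in control shRNA arrays. GULP1, an engulfment adaptor, read 4.77, 5.35 and 5.05 in gankyrin shRNA arrays and 7.62, 7.88 and 7.75 in control shRNA arrays. These genes were picked for their closeness over the same arrays, so a shared order of arrays follows from the choice and is not a result.

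Of the 10 genes, 9 had a probe set past the filter. At the level of genes, each by its brightest probe set, 3 of these 9 passed limma at an adjusted p under 0.05, AKAP12 and AKAP1 lower and AKAP7 higher. Over all genes 22.5% passed, 14.3% lower and 8.13% higher, and nothing is read from the count of 3, since this contrast helped to choose the genes. Which genes pass also turns on the probe set taken: on the mean over probe sets AKAP1 no longer passed and AKAP13 did, and AKAP13 and AKAP9 passed when the _x_at and _s_at ones were passed over. The same 3 genes were those whose groups did not overlap, as was the case for 40.3% of all genes (24.6% lower, 15.7% higher). The median difference was -0.11 over the 9 genes and -0.07 without AKAP12, against -0.02 over all genes. Over probe sets, 9 of 30 passed (6 lower, 3 higher), where 11.8% of all 27004 single-gene probe sets did (7.12% lower, 4.66% higher). Of the 6 lower ones 4 were those of AKAP12. The groups did not overlap on 11 of 30 probe sets (6 lower, 5 higher), as on 37.4% of all probe sets (20.9% lower, 16.5% higher).

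**Figure D2:**
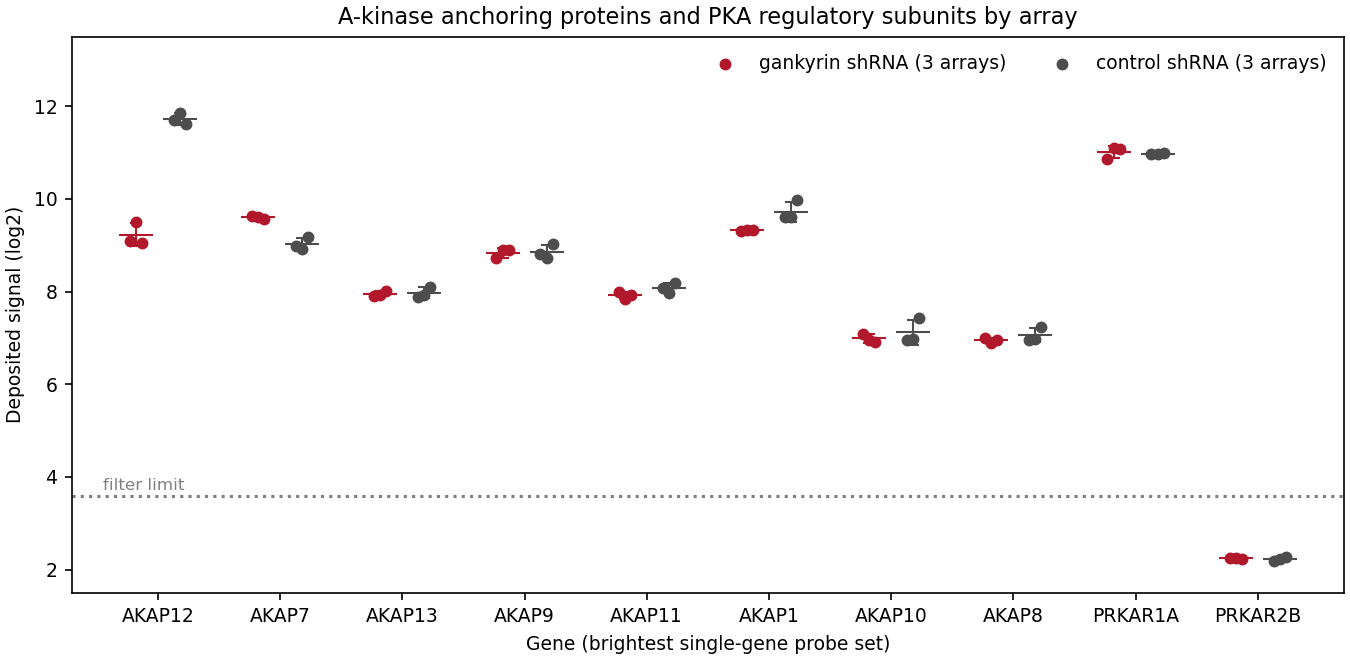
Deposited log2 signal (vertical axis) of the brightest single-gene probe set of each gene (horizontal axis), with gankyrin shRNA arrays in red left of control shRNA arrays in grey and bars for the mean ± SD (n = 3 each); heights of different genes are not comparable, since probe sets differ in brightness. The groups are separate for AKAP12, AKAP7 and AKAP1 and overlap for the 7 others, of which PRKAR2B lies under the filter limit of 3.6.

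AKAP7 was the anchoring protein that was higher on both of its measured probe sets. Probe set 205771_s_at read 9.63, 9.60 and 9.57 in gankyrin shRNA arrays against 8.98, 8.93 and 9.18 in control shRNA arrays. The groups did not overlap, and the difference was 0.57 ± 0.07 (log2 ± SE), or 1.48-fold. Probe set 211172_x_at read 6.24, 6.26 and 6.06 in gankyrin shRNA and 5.62, 5.83 and 5.35 in control shRNA arrays, again without overlap, a difference of 0.59. Without control replicate 3 the AKAP7 differences were 0.65 and 0.46. The remaining AKAP7 probe set, 205772_s_at, was under the filter in both groups.

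AKAP13, a large scaffold that also acts as an exchange factor for the small GTPase RHOA, did not give 1 answer across its 6 measured probe sets. The brightest, 221718_s_at, read 7.90, 7.93 and 8.02 in gankyrin shRNA and 7.89, 7.92 and 8.11 in control shRNA arrays, a difference of -0.02. On 227039_at the values were 6.97, 6.82 and 6.96 in gankyrin shRNA against 6.55, 6.37 and 6.44 in control shRNA arrays, which did not overlap and differed by 0.46. The dimmest measured one, 208325_s_at, read 5.73, 5.99 and 5.68 in gankyrin shRNA against 5.47, 5.30 and 4.83 in control shRNA arrays, a difference of 0.60 that was 0.42 without control replicate 3. Altogether 4 of the 6 were higher and 2 lower, from -0.12 to 0.60, and 5 more probe sets were under the filter.

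AKAP9, the centrosome and Golgi scaffold known as yotiao in its short form, likewise differed between probe sets. Its bright probe set 210962_s_at read 8.72, 8.89 and 8.89 in gankyrin shRNA and 8.81, 8.72 and 9.03 in control shRNA arrays and overlapped (difference -0.02). Its dim probe set 215483_at read 4.41, 4.26 and 4.46 in gankyrin shRNA and 4.88, 4.73 and 5.20 in control shRNA arrays, with no overlap and a difference of -0.56 (-0.43 without control replicate 3). AKAP11, an anchoring protein of vesicles that also binds GSK3 and protein phosphatase, read 7.99, 7.83 and 7.93 in gankyrin shRNA and 8.08, 7.98 and 8.19 in control shRNA arrays. These overlapped, and both AKAP11 probe sets were slightly lower, at -0.17 and -0.09.

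AKAP1, which tethers PKA and RNA to the mitochondrial outer membrane, was lower on 1 bright probe set but not on the other. On 201675_at it read 9.30, 9.34 and 9.32 in gankyrin shRNA against 9.60, 9.60 and 9.97 in control shRNA arrays. The groups did not overlap and differed by -0.40 ± 0.09 (log2 ± SE), with control replicate 3 the highest array; without it the difference was -0.28. On 201674_s_at, nearly as bright, AKAP1 read 9.30, 9.35 and 9.38 in gankyrin shRNA and 9.39, 9.29 and 9.52 in control shRNA arrays, which overlapped (difference -0.06). The other probe sets of AKAP1 were at 0.19 and 0.29, and the mean of all 4 differed by 0.005. The AKAP1 difference on 201675_at was -0.39 without gankyrin shRNA replicate 1 and -0.40 without replicate 3. It missed the limma threshold in both, which is no test of AKAP1, since this contrast helped to choose it.

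AKAP10, an anchoring protein of mitochondria and endosomes with RGS domains, and AKAP8, a zinc finger protein that anchors PKA in the nucleus, overlapped between the groups on every measured probe set. The 4 AKAP10 probe sets ran from -0.65 to 0.34, and the brightest read 7.09, 6.96 and 6.92 in gankyrin shRNA against 6.96, 6.97 and 7.43 in control shRNA arrays. Without control replicate 3 its difference was 0.03 in place of -0.13. AKAP8 was at 6.99, 6.90 and 6.96 in gankyrin shRNA and 6.96, 6.98 and 7.24 in control shRNA arrays on its brighter probe set, and its 2 differences were -0.11 and 0.02. Without control replicate 3 they were at -0.02 and 0.02.

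PRKAR1A, the regulatory subunit RI-alpha, was nearly level between the groups. Its brightest probe set 200603_at read 10.87, 11.09 and 11.07 in gankyrin shRNA and 10.97, 10.96 and 11.00 in control shRNA arrays (difference 0.03 ± 0.06, log2 ± SE). The second, 200605_s_at, read 10.37, 10.61 and 10.34 in gankyrin shRNA and 10.36, 10.39 and 10.16 in control shRNA arrays, also with overlap. On 200604_s_at a single array set the difference: PRKAR1A read 8.92, 8.95 and 8.63 in gankyrin shRNA and 8.71, 8.90 and 6.98 in control shRNA arrays. The difference of 0.64 became 0.03 without control replicate 3. PRKAR2B, the regulatory subunit RII-beta, best known from brain and fat, had 1 probe set, which read 2.26, 2.25 and 2.23 in gankyrin shRNA and 2.18, 2.24 and 2.27 in control shRNA arrays. These values lie under the filter at the low end of the scale, and no difference is given for it.

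**Figure D3:**
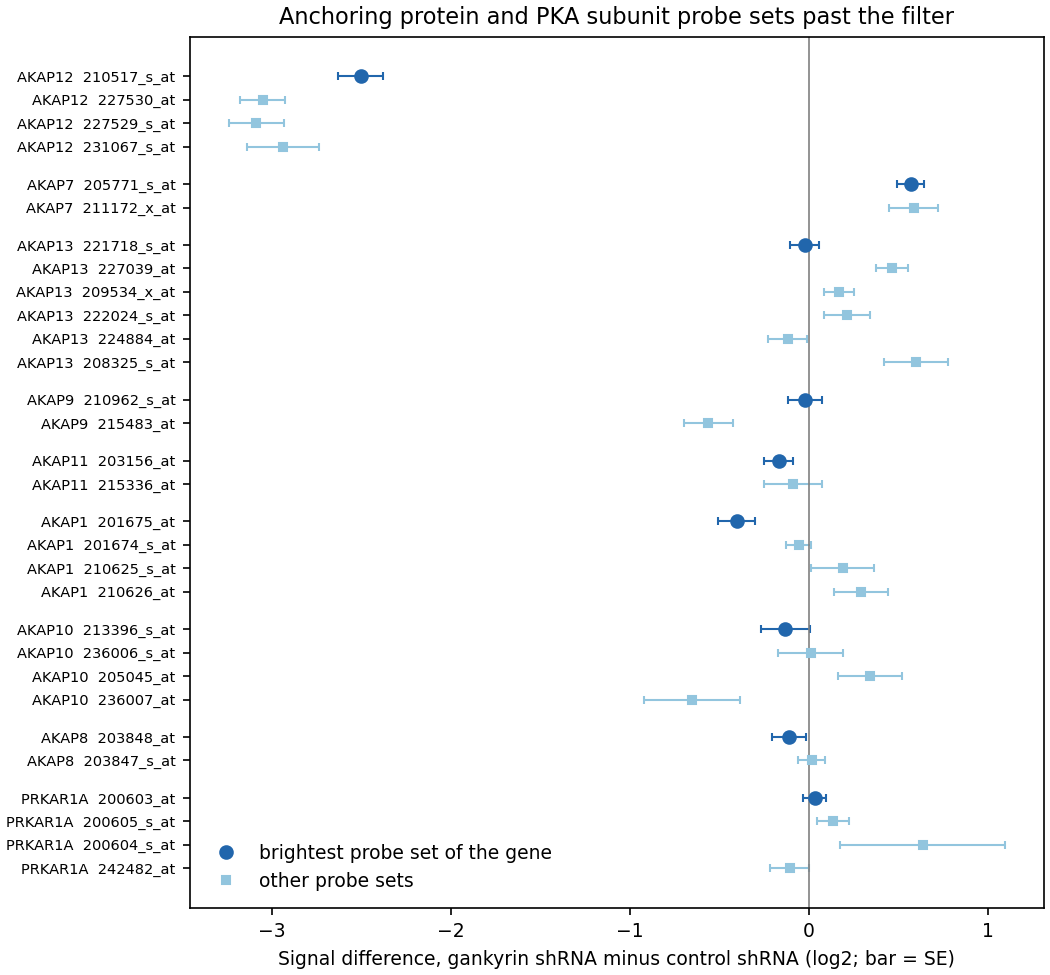
Difference of the log2 signal, gankyrin shRNA minus control shRNA (horizontal axis, bars are SE from limma), for the 30 probe sets past the filter, grouped by gene down the page with the brightest probe set of each gene as a dark circle and the others as light squares. The 4 AKAP12 probe sets lie between -3.09 and -2.50, apart from the other 26, which lie between -0.65 and 0.64; only for AKAP12, AKAP7, AKAP9 and AKAP11 do all measured probe sets of a gene fall on 1 side of 0.

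Other genes of cAMP and PKA signalling were counted from 7 lists, which hold 116 genes beyond the 10 described, each counted once. Of the 87 measured, 29 passed limma, 4 higher and 25 lower, that is 33.3% where 22.5% of all genes passed, with a median difference of -0.13. The count was 20 (23%), with 5 higher and 15 lower, on the mean over a gene's probe sets. It was 20 (23%) when the _x_at and _s_at probe sets were passed over and 19 (21.8%) with no intensity trend. It was 15, 14 and 17 (17.2%, 16.1% and 19.5%) without gankyrin shRNA replicate 1, 2 and 3. Without control shRNA replicate 3 it was 34 (39.1%). The count over all 14199 genes moved as well, from 3189 to 2403 on the mean, 2881 with those probe sets passed over and 2519 with no trend. It was 1767 without gankyrin shRNA replicate 1, and with 1 array left out it ran from 1742 to 4122. The 22.5% thus belongs to the main setting only and is no background for the other shares. A share near or under 22.5% in another setting therefore does not mean that the lists there match all genes. An eighth list, of scaffolds that are not AKAPs, was counted apart; with it 38 of 100 measured genes passed. Adjusted p-values below are from limma over 14199 genes, 3 arrays per group, and differences are log2 ± SE.

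Of 8 measured PKA subunits and inhibitors 3 fell and 0 rose, 2 of the 3 being inhibitors of the catalytic subunit. PKIB, an inhibitor peptide of the catalytic subunit, read 7.12, 7.20 and 7.25 in gankyrin shRNA against 8.12, 8.24 and 8.11 in control shRNA arrays, and fell by 0.97 ± 0.08 on the log2 scale (adjusted p = 3.47e-05). Both PKIB probe sets were lower, at -1.18 and -0.97. PKIG, a related inhibitor, read 6.46, 6.40 and 6.36 in gankyrin shRNA against 6.84, 6.88 and 6.96 in control shRNA arrays (-0.49 ± 0.08, adjusted p = 0.00256). The kinase PRKX, a relative of the catalytic subunits, was the other gene to fall (-0.41 ± 0.11, adjusted p = 0.0218); it missed the threshold without gankyrin shRNA replicate 1 (adjusted p = 0.097) or 3 (0.075). The catalytic subunit PRKACA was at -0.28 ± 0.14 (adjusted p = 0.169) and the regulatory subunit PRKAR2A at -0.13 ± 0.07 (adjusted p = 0.227). Without control shRNA replicate 3 they were at -0.11 (adjusted p = 0.367) and -0.06 (adjusted p = 0.451).

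Of 12 measured genes of cAMP synthesis 4 fell and 1 rose. ADCY9, an adenylyl cyclase, read 5.20, 5.22 and 5.71 in gankyrin shRNA against 6.36, 6.43 and 6.75 in control shRNA arrays (-1.14 ± 0.15, adjusted p = 8.76e-04), and its other probe set was at -0.19 (mean of both -0.67, adjusted p = 0.00647). GNAS, the stimulatory G protein alpha subunit, read 12.04, 12.06 and 12.05 in gankyrin shRNA and 12.32, 12.33 and 12.44 in control shRNA arrays (-0.31 ± 0.04, adjusted p = 6.15e-04). All 10 GNAS probe sets past the filter were lower, from -0.81 to -0.10. The cyclases ADCY3 (-0.33 ± 0.08, adjusted p = 0.0131) and ADCY7 (-0.58 ± 0.15, adjusted p = 0.0197) also passed. ADCY3 missed the threshold without gankyrin shRNA replicate 1 (adjusted p = 0.0687) or 2 (0.0591). ADCY7 missed it without replicate 1, 2 or 3 of that group (adjusted p = 0.0683, 0.0807 and 0.0553) and was at 0.24 on its other probe set (mean of both -0.17, adjusted p = 0.137). The riser, named after its value was seen, was GNAI3, an inhibitory alpha subunit, at 0.15 ± 0.05 (adjusted p = 0.0471). It passed in 5 of 15 alternatives (adjusted p = 0.0298 to 0.333 over all) and missed the threshold without gankyrin shRNA replicate 1 or 2 (adjusted p = 0.166 and 0.171) or control shRNA replicate 1 or 2 (0.107 and 0.0613). GNAI1 (-0.18, adjusted p = 0.0606) passed without control shRNA replicate 3 (adjusted p = 0.0137), and the cyclase ADCY6 was at -0.18 (adjusted p = 0.172).

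Among 9 measured cAMP phosphodiesterases 1 fell. PDE4A was at -0.39 ± 0.13 (adjusted p = 0.0476), and that call was lost without each array but control replicate 1, with adjusted p-values of 0.0747, 0.133 and 0.162 without gankyrin shRNA replicate 1, 2 and 3 and 0.0625 and 0.0728 without control shRNA replicate 2 and 3. PDE4D (0.25 ± 0.09, adjusted p = 0.0673) and PDE8A (-0.17 ± 0.06, adjusted p = 0.0679) passed without control shRNA replicate 3 (adjusted p = 0.0298 and 0.024). On the mean over its probe sets PDE8A was at -0.03 (adjusted p = 0.891), and PDE4A at -0.09 (adjusted p = 0.472).

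Of 15 other anchoring proteins measured, 4 fell and 0 rose, or 26.7% against 22.5% of all genes. None of the 4 passed on the mean over all probe sets of the gene (limma, adjusted p = 0.0893 for ARFGEF2, 0.0662 for AKAP17A, 0.0593 for MAP2 and 0.422 for EZR). On that mean 0 of the list fell and 1 rose, so its direction turns on the probe set taken. ARFGEF2, an exchange factor of ARF GTPases that also anchors PKA, read 8.47, 8.59 and 8.63 in gankyrin shRNA against 8.95, 9.02 and 9.18 in control shRNA arrays (-0.49 ± 0.08, adjusted p = 0.00198), with 2 of its 4 probe sets lower. AKAP17A, a splicing-related anchoring protein, was at -0.29 ± 0.07 (adjusted p = 0.0138) and lower on all 3 probe sets, but missed the threshold without gankyrin shRNA replicate 1 (adjusted p = 0.0736) or 2 (0.0515). The microtubule protein MAP2 (-0.33 ± 0.10, adjusted p = 0.0431) missed it without any array but control shRNA replicate 3 (adjusted p = 0.0604 to 0.165 over those 5). Ezrin, EZR, was at -0.25 ± 0.08 (adjusted p = 0.0424) on its brightest probe set, but its 5 probe sets ran from -0.25 to 0.82. The EZR value was 0.03 without control shRNA replicate 3 (adjusted p = 0.791), and the call was lost without each array but control shRNA replicate 1. Of genes that did not pass, ACBD3 was at -0.22 ± 0.07 (adjusted p = 0.053), past the threshold without control shRNA replicate 1 or 3 (adjusted p = 0.0395 and 0.0493) but at 0.12 on the mean over its probe sets (adjusted p = 0.535), and GSKIP, which anchors PKA with GSK3, at -0.12 ± 0.06 (adjusted p = 0.177).

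Of 17 measured genes known to be induced through the cAMP-responsive factor CREB, 6 fell, NFIL3 among them, and 1 rose. The orphan nuclear receptor NR4A2 read 6.06, 6.06 and 5.75 in gankyrin shRNA against 6.66, 6.93 and 7.06 in control shRNA arrays (-0.93 ± 0.13, adjusted p = 9.13e-04), and all 3 of its probe sets were lower. FOSB, a subunit of AP-1, read 4.05, 4.16 and 4.26 in gankyrin shRNA against 4.99, 4.87 and 5.32 in control shRNA arrays (-0.90 ± 0.13, adjusted p = 0.00113). RGS2, which switches off G protein alpha subunits, was at -0.46 ± 0.06 (adjusted p = 6.51e-04). SGK1, a kinase induced by several hormones, rose by 0.39 ± 0.06 (adjusted p = 0.00231). It read 9.66, 9.81 and 9.68 in gankyrin shRNA against 9.24, 9.36 and 9.37 in control shRNA arrays, with no overlap. The nuclear receptor NR4A1 was at -0.27 ± 0.09 (adjusted p = 0.0622) and passed without control shRNA replicate 1 (adjusted p = 0.0389). It was at -0.11 on the mean over its probe sets (adjusted p = 0.371) and at 0.10 when the _x_at and _s_at ones were passed over (adjusted p = 0.621). Of 8 measured CREB factors, coactivators and cAMP exchange factors, 2 fell: the coactivators CRTC2 (-0.44 ± 0.09, adjusted p = 0.00636) and CRTC3 (-0.41 ± 0.13, adjusted p = 0.0457). The CRTC3 call was lost without gankyrin shRNA replicate 1, 2 or 3 (adjusted p = 0.131, 0.117 and 0.127). The CRTC3 difference was -0.23 without control shRNA replicate 3 (adjusted p = 0.0111). EP300 (-0.30, adjusted p = 0.162) and the exchange factor RAPGEF3 (-0.17, adjusted p = 0.29) did not pass, and without that array they were at -0.14 (adjusted p = 0.314) and -0.06 (adjusted p = 0.627).

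Other partners that AKAPs hold moved in both directions: of 21 measured, 5 fell and 2 rose. CCND1, cyclin D1, which AKAP12 is known to bind, was at -1.09 ± 0.10 (adjusted p = 7.91e-05), with 6.82, 6.88 and 6.75 in gankyrin shRNA against 7.74, 7.89 and 8.09 in control shRNA arrays. PPP2CB, a catalytic subunit of protein phosphatase 2A, fell by 0.63 ± 0.06 (adjusted p = 1.41e-04). PPP3CA, a catalytic subunit of calcineurin, fell by 0.37 ± 0.06 (adjusted p = 0.00293) and was lower on all 3 of its probe sets. PPP1CC, a catalytic subunit of protein phosphatase 1, rose by 0.18 ± 0.04 (adjusted p = 0.0135), a call lost without gankyrin shRNA replicate 1 (adjusted p = 0.0577) or 2 (0.061). The calcineurin subunit PPP3CB (0.30 ± 0.10, adjusted p = 0.0544) passed without control shRNA replicate 3 (0.42, adjusted p = 2.19e-04), and the protein kinase PRKCZ was at -0.26 (adjusted p = 0.064).

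A last list holds 13 membrane and cortical scaffolds that are not AKAPs, and 8 fell and 1 rose. It includes AHNAK2, which was known to fall on these arrays when the list was written, so its count supports nothing about scaffolds in general. AHNAK2 was at -2.00 ± 0.11 (adjusted p = 5.57e-06) with a gankyrin shRNA mean of 3.71, close to the filter limit, and at 0.18 on its other probe set. On the mean of both AHNAK2 was at -0.91 (adjusted p = 0.0018). The spectrin SPTAN1 fell by 0.77 ± 0.09 (adjusted p = 3.69e-04) on its brightest probe set, but its 5 probe sets ran from -0.85 to 0.13 and their mean was at -0.34 (adjusted p = 0.0434). AHNAK was at -0.64 ± 0.10 (adjusted p = 0.00158) on its brightest probe set but at up to 0.65 on another, and the mean of its probe sets did not pass (-0.10, adjusted p = 0.537). The adducin ADD3 rose by 0.41 ± 0.04 (adjusted p = 1.61e-04) and was higher on all 4 of its probe sets. MARCKS, a PKC substrate of the membrane, was at -0.10 (adjusted p = 0.261), and ADD1 at -0.06 (adjusted p = 0.603); on the mean over their probe sets they were at 0.05 (adjusted p = 0.726) and 0.08 (adjusted p = 0.567).

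**Figure D4:**
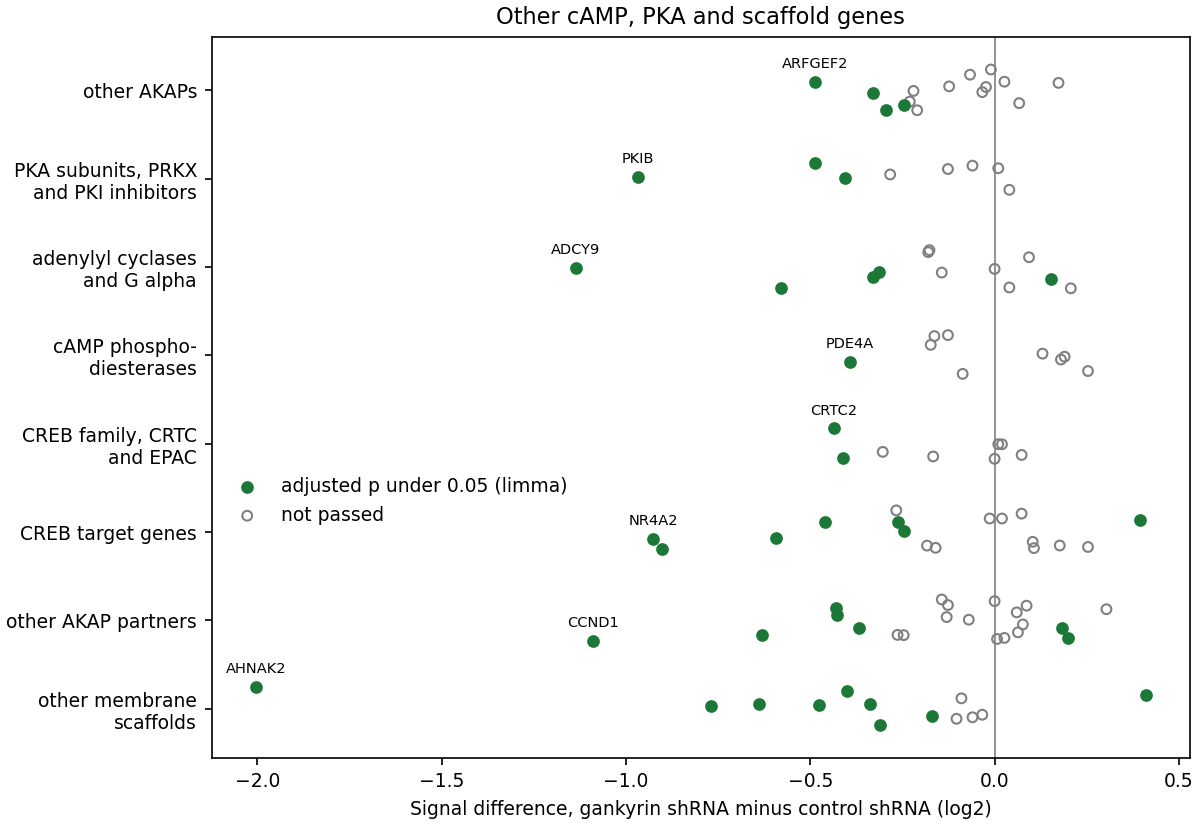
Difference of the log2 signal, gankyrin shRNA minus control shRNA (horizontal axis), for each measured gene of the 8 lists (rows, points spread vertically for legibility); filled points passed limma at an adjusted p under 0.05 and open points did not, and the lowest gene of each list is named. Most filled points lie left of 0, with 33 of the 38 called genes lower, against 2035 of the 3189 called among all genes. Without the other membrane scaffolds, a list written with the fall of AHNAK2 known, 25 of 29 were lower.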

How the data were processed

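Total RNA (6 ug per array) of SW480 cells was labelled as biotinylated cRNA and hybridised to Affymetrix arrays, per the labels. The authors deposited log2 signals, 1 per probe set and array, already on a common scale (array medians 4.20 to 4.25). The log2 scale was read from the values, MAS5 is named in the submitters' processing notes with no role or version, and no source used here gives the summary method or the genome build. They entered the fits as deposited. Gene symbols came from the platform annotation, updated through Entrez identifiers to RefSeq (19735 single genes matched, 42 kept the older symbol). Several-gene probe sets were left out, among them 4 that name AKAP2. A filter removed 62 manufacturer's controls and, of all other probe sets, the 40% with the lowest mean over all 6 arrays; 27004 single-gene probe sets and 14199 genes, each by its brightest probe set, were tested. Signal is not calibrated between probe sets, so levels of different genes are not compared.

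The test was that of limma 3.58.1 (R 4.3.3; lmFit, eBayes with an intensity trend, two-sided, Benjamini-Hochberg over all genes or all probe sets, threshold 0.05). Simulated data for this comparison (14199 genes, with 50 shifted at each size) gave back 3 genes at a log2 shift of 0.3, 26 at 0.5, 46 at 1 and 49 at 2. Far fewer genes were shifted there than the 3189 called in the data, which makes the Benjamini-Hochberg cutoff stricter. The simulated counts therefore do not give the sensitivity of the real comparison and may understate it. For arrays, the 3 per group limit the precision. The 10 genes, the lists and the rule for naming genes were chosen with earlier results of these data known. Named were the 10 genes, PSMD10 and NFIL3, in each list up to 4 called genes and up to 2 others of smallest p, and the 6 genes nearest to AKAP12. Same-numbered replicates were not treated as pairs: the correlations of their deviations from the group means were 0.02, 0.11 and -0.01 for replicates 1, 2 and 3, and nothing in the labels ties them. Alternatives were array scaling, the filter, the variance prior, the choice of probe set, the replicate block and leaving out each array.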

Additional observations from a re-analysis of the deposited data

How the results depend on the processing

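The differences of the 4 AKAP12 probe sets kept their direction in all 13 alternatives run on them, from -3.24 to -2.42, and AKAP7 stayed between 0.52 and 0.65 in 15. PSMD10 kept its direction and call in 15. Averaging a gene's probe sets turned AKAP1 to 0.005 and EZR to 0.307, and moved AKAP13 to 0.218, AKAP9 to -0.29 and PRKAR1A to 0.175. It lowered the 38 called cAMP, PKA and scaffold genes to 24, and the 3189 called among all genes to 2403. AKAP13 was at 0.463, AKAP9 at -0.56, AKAP10 at 0.343, EZR at 0.257 and ADCY7 at 0.24 when the _x_at and _s_at probe sets were passed over where a gene had another, and EZR at 0.0283 without control shRNA replicate 3, its values without 1 array running from -0.30 to 0.0283. Leaving out 1 array gave 1742 to 4122 called genes (3189 with all arrays), 752 to 6642 called probe sets (3180) and 21 to 43 called list genes (38). The replicate block gave 3049 genes and 1955 probe sets. The labels do not say whether same-numbered arrays belong together, so a call lost under the block is not read either way. The cause of these changes was not tested. No detection calls were used, so dim probe sets such as that of PRKAR2B are described as under the filter and not as absent.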
